A study of Mus musculus with 36 samples.

Results

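MHC class I antigen presentation was followed through 9 genes, chosen by symbol: the heavy chains H2-K1 and H2-D1, their partner B2m, the peptide transporter subunits Tap1 and Tap2, the loading factor Tapbp, the immunoproteasome subunits Psmb8 and Psmb9, and the transcriptional activator Nlrc5. All 9 were found among the 30205 genes of the data, and all 9 passed the filter on low counts in every comparison. The study measured RNA in mouse bone cells that either were wild type (WT) or lacked Mir324 (null), a microRNA gene. Each genotype was grown as bone marrow macrophages (BMM), as marrow cells given RANK-L to form osteoclasts (OC), and as osteoblasts (OB), with 6 libraries in each of the 6 groups. All mice were 20 weeks old. Marrow cells were first expanded for 3 days in 100 ng/mL M-CSF, the growth factor of macrophages. BMM cultures then had 30 ng/mL M-CSF for 5 days, and OC cultures had the same M-CSF plus 50 ng/mL RANK-L, the cytokine that drives osteoclast formation. OB cultures grew out of bone chips over about 6 weeks and then spent 18 days in medium with 2 mM β-glycerophosphate and 50 µg/mL L-ascorbic acid. The labels used here do not give the strain, the sex, how the null allele was made, or whether libraries share a mouse, so p-values measure the spread between these libraries, which may in part be technical.

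Nearly every nucleated cell cuts a part of its own proteins into peptides with the proteasome, moves them into the endoplasmic reticulum through the TAP transporter and shows them at its surface on a heavy chain bound to β2-microglobulin, where CD8 T cells read them. Interferons raise the whole pathway: they replace catalytic subunits of the proteasome with immunoproteasome subunits and induce Nlrc5, which acts with the RFX, CREB and NF-Y factors at a shared promoter module. Macrophages and their osteoclast descendants carry this machinery, and osteoblasts carry it as ordinary nucleated cells.

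Stretches of promoter with letters of that module are shown first. In the results that follow, H2-K1, H2-D1 and B2m fell with RANK-L in WT cells, rose in null OC and fell in null OB. Tapbp and Psmb8 did the same. RefSeq promoters (GRCm38.p6, from 250 bases before each start to 50 after it) were held for 7 of the 9 members, without Tap2 and Nlrc5. Each line runs 5′ to 3′ from an X2 match (TGACG) to a Y match (ATTGG), with the matches in capitals. The H2-K1 stretch is chr17:34000359-34000388 on the minus strand, 41 to 12 bases before the start. The H2-D1 stretch is chr17:35262993-35263022 on the plus strand, 101 to 72 bases before the start and inside an annotated H2-D1 exon. The B2m stretch is chr2:122147609-122147638 on the plus strand, 78 to 49 bases before the start, and that of H2-M3, a non-classical class I heavy chain, is chr17:37270188-37270217 on the plus strand, 46 to 17 bases before the start.
H2-K1: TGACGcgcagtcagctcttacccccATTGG
H2-D1: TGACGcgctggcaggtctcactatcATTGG
B2m: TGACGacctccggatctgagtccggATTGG
H2-M3: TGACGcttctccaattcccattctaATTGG
All 4 stretches span 30 bases, with 25 bases from the start of X2 to the start of Y. That distance is the one seen in H2-K1. Only pairs at that distance were printed, so the equal spacing was set by the search. H2-K1 and H2-D1 share 23 of the 30 bases, whereas H2-K1 and B2m share 13. On either strand, X2 letters stood in 20.8% of all promoters and Y letters in 37.4%, but the same spacing on the same strand occurred in 19 of 32851 promoters (0.0578%), from 16 of 27025 genes. These included 3 of the 7 members with a promoter, 1 of 10 non-classical class I genes (H2-M3) and the osteoblast marker Ibsp, a bone matrix protein. H2-K1 is counted among those members although it set the spacing. Tapbp and Psmb8 had no X2 match in their windows, which lie wholly inside annotated exons.

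Upstream of these stretches, the H2-K1, H2-D1 and B2m promoters held an NF-kappaB match (GGGNN followed directly by TTNCC, in 4.79% of all promoters on either strand) beside an interferon regulatory factor match (AANNGAAA, in 23.9%), again in capitals. The H2-K1 stretch is chr17:34000430-34000458 (minus strand), the H2-D1 stretch chr17:35262923-35262951 (plus strand, inside an annotated exon) and the B2m stretch chr2:122147550-122147570 (plus strand).
H2-K1: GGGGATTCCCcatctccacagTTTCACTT
H2-D1: GGGGATTCCCcatctcctcagTTTCACTT
B2m: AACTGAAAatgGGAAAGTCCC
The heavy chain stretches are identical in 28 of 29 bases, and B2m has the matches in the opposite order. No such pair of matches lay within 30 bases of each other in the Tap1, Tapbp, Psmb8, Psmb9 or H2-M3 windows. Of these windows, those of Tap1, Tapbp, Psmb8 and Psmb9 lie wholly inside annotated exons. Tap1 and Psmb9 are transcribed away from each other, and their promoter windows share 275 bases. Matches describe letters in these windows and were not tested as binding sites.

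The microRNA gene Mir324 yields a pair of mature strands, whose seeds (bases 2 to 8) are in capitals.
mmu-miR-324-5p: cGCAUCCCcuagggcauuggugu
mmu-miR-324-3p: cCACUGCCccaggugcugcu
The site that pairs with the 5p seed, GGGATGC, lay in the longest 3′ UTR of 1720 of 20850 annotated genes (8.25%), and that for the 3p seed, GGCAGTG, in 2966 (14.2%). Among the 9 members, Psmb9 had 1 site for the 5p strand, at base 253 of a 687-base 3′ UTR, and Tapbp had 1 for the 3p strand, at base 544 of 1141. The other 7 members had neither.
Psmb9: aaccatgggaGGGATGCtaattcgaca
Tapbp: gggaggcagaGGCAGTGgatctctgac

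Depth was 14118972 to 26347581 estimated counts per library. Levels of a gene across libraries are given below in CPM, counts relative to library size after TMM scaling over all 36 libraries, as the lowest, median and highest of the 6 libraries of a group, and levels of different genes are compared in TPM, which is corrected for transcript length. The 8 osteoclast markers summed to 29052 to 31518 CPM in WT OC but to 338.88 to 708.47 CPM in null OC, where Calcr was at 0. The null OC sums were above the 236.71 to 310.04 CPM of null BMM, and 6 of the 8 markers rose with RANK-L in null cells, among them Ctsk (log2 change 4.34, adjusted p = 1.06e-06) and Acp5 (1.31), so the osteoclast markers of the label were present in null OC but far below their WT OC levels. Most of the null BMM sum was Mmp9, with a mean of 186 CPM against 0.34 CPM in WT BMM. In null against WT BMM, Acp5 was also higher (log2 change 2.23), while Ctsk (-0.96) and Atp6v0d2 (-1.14) were lower. The osteoblast markers Col1a1 and Col1a2 were higher in null than in WT BMM (2.05 and 3.35) and in null than in WT OC (3.37 and 6.28). Macrophage markers (7 genes) summed to 5303 to 5677 CPM in WT OC and 11300 to 15411 CPM in null OC, against 11141 to 12554 CPM in WT BMM. OB cultures were rich in osteoblast markers, with 54014 to 78109 CPM in WT and 96246 to 115840 CPM in null, and also held macrophage markers, at 3758 to 4389 CPM in WT and 2628 to 3163 CPM in null. They held osteoclast markers too, among them Ctsk (mean 1930 CPM in WT OB and 2426 CPM in null OB). Acp5 had means of 1450 and 1560 CPM there, and Mmp9 of 880 and 1428 CPM. Markers of T and NK cells stayed at or below 14.7 CPM in sum in every group, those of B cells at or below 3.52 CPM and those of dendritic cells at or below 21.1 CPM. The 8 neutrophil markers summed to at most 0.3925 CPM in WT BMM and 0.31533 CPM in WT OC, but to 6.48 to 17.3 CPM in null BMM and 5.75 to 8.29 CPM in null OC, nearly all of it S100a8, which rose by log2 changes of 5.98 and 5.81. The 5 endothelial markers summed to 75.7 to 313.6 CPM over all libraries. In null BMM Pecam1 rose (0.53, adjusted p = 0.00823) and Kdr fell (-2.98, adjusted p = 4.06e-09). Cdh5, Tek and Emcn had too few counts to be tested there. The part of the neutrophil or endothelial markers in the genotype results was not tested. In such bulk cultures, fewer cells of a type and less RNA per cell cannot be told apart.

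In WT macrophages the presenting molecules themselves were the most abundant members, and the activator Nlrc5 the scarcest. Mean levels in WT BMM, each with its SD over 6 libraries, were 4260 ± 532 TPM for H2-D1, 3610 ± 548 TPM for B2m and 523 ± 62.7 TPM for H2-K1. Tapbp, the bridge that holds empty heavy chains at the TAP transporter, stood at 367 ± 20.2 TPM, and Psmb8 at 265 ± 14.0 TPM. Tap2 followed at 83.5 ± 6.29 TPM, Psmb9 at 57.2 ± 8.74 TPM, Tap1 at 30.1 ± 5.38 TPM and Nlrc5 at 4.40 ± 0.627 TPM. The order was the same in WT OC, and in WT OB it differed in that B2m, at 2612 ± 176 TPM, stood above H2-D1, at 1731 ± 228 TPM. Among neighbours in these WT orders, H2-D1 and B2m in BMM were the pair whose ranges of mean ± SD overlapped. H2-K1 and H2-D1 share part of their sequence. Of the 1589 words of 31 bases in H2-K1, 23.3% occur in any other gene and 269 words in H2-D1. Of the 2072 such words in H2-D1, 27.4% occur in any other gene and 268 words in H2-K1. The split of these genes from each other and from non-classical heavy chains is therefore uncertain.

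**Figure D1:**
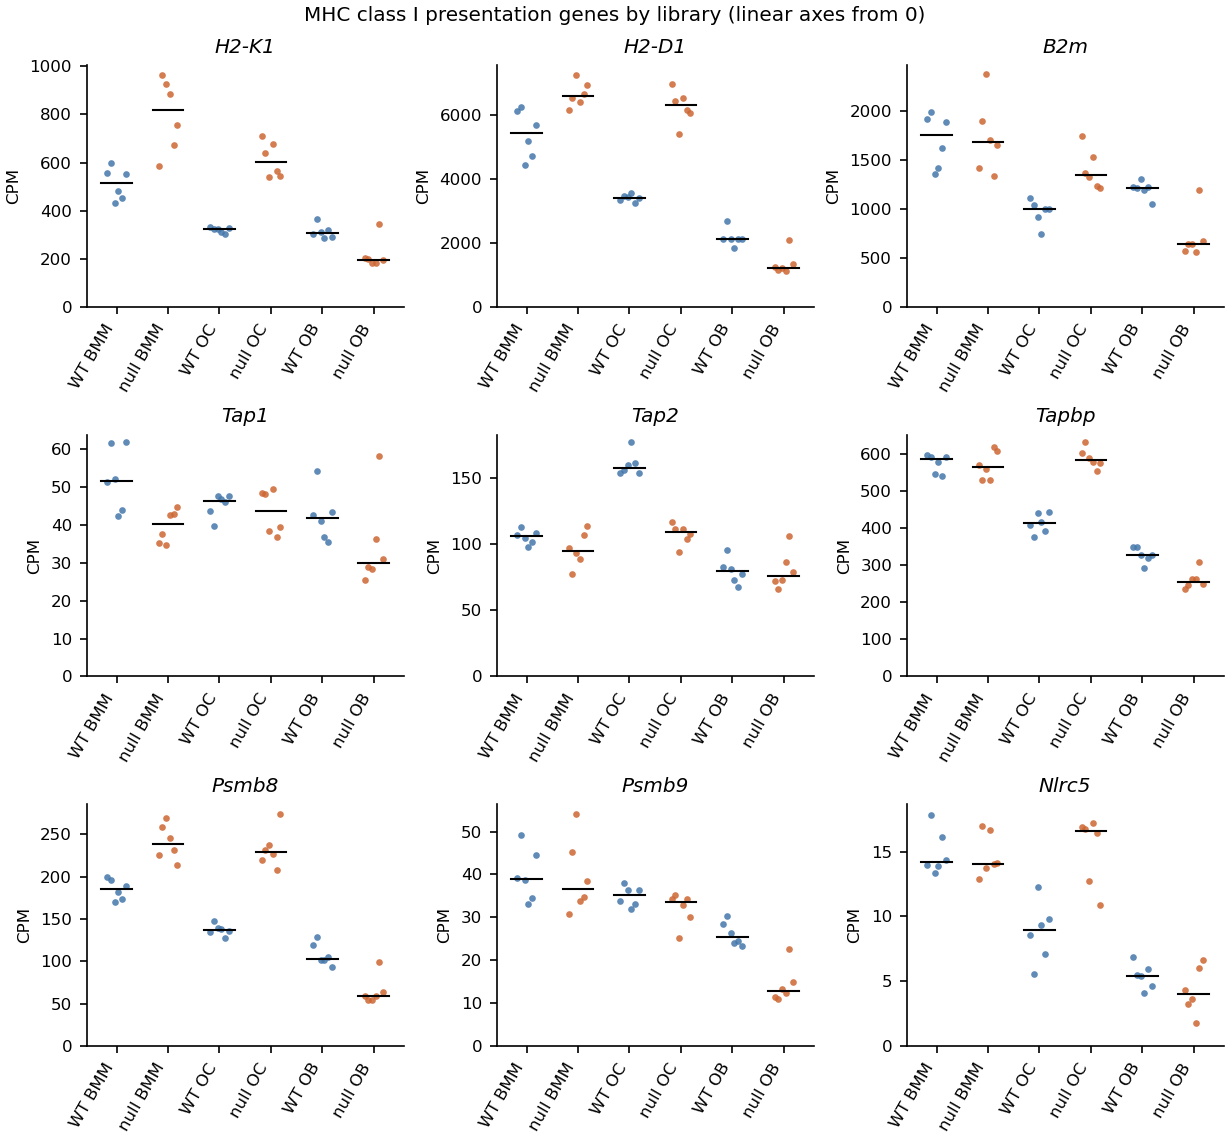
CPM of each of the 9 members (vertical axes, linear from 0) in the 6 libraries of each group (points; blue WT, orange null; black lines are medians). In OC the null points of H2-K1, H2-D1, B2m, Tapbp and Psmb8 all lie above the WT points and those of Tap2 all below. In OB the null points lie mostly below, with 1 library high, except for Tap2 and Nlrc5, whose WT and null points overlap broadly.

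The cell types were compared first in WT cells. All 9 members were lower in OB than in BMM, where 76.8% of all genes were past an adjusted p of 0.05 and 35.3% were lower. H2-D1 had 4419, 5440 and 6223 CPM (lowest, median, highest) in WT BMM and 1828, 2123 and 2684 CPM in WT OB. The groups did not overlap, with a log2 change of -1.31 (SE 0.11, adjusted p = 1.17e-13). Nlrc5 was lower as well, by a log2 change of -1.47 (SE 0.19, adjusted p = 1.63e-08). It had 13.4, 14.2 and 17.9 CPM in WT BMM against 4.10, 5.42 and 6.87 CPM in WT OB. Tapbp followed at -0.81 (SE 0.06), Psmb8 at -0.78 (SE 0.10), H2-K1 at -0.71 (SE 0.12), Psmb9 at -0.61 (SE 0.13), B2m at -0.50 (SE 0.15), Tap2 at -0.40 (SE 0.09) and Tap1 at -0.31 (SE 0.14, adjusted p = 0.0421). The Tap1 call held in 10 of 21 alternatives. It was lost with RLE scaling, without a filter, with DESeq2 and with the length and GC offset alone or with the replicate block, as well as without any of WT BMM replicates 1, 2 and 6 or WT OB replicates 3, 4 and 5, and the values over all alternatives ran from -0.418 to -0.24.

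Against WT OC, WT OB cultures were lower in 6 of the 9 members, where 77.9% of all genes were past the threshold and 36.7% were lower. The difference was largest for Tap2, with 154, 158 and 178 CPM in WT OC and 67.8, 79.7 and 95.9 CPM in WT OB, a log2 change of -1.01 (SE 0.09, adjusted p = 1.03e-12). Nlrc5 (-0.70, SE 0.19), H2-D1 (-0.65, SE 0.11), Psmb9 (-0.42, SE 0.13), Psmb8 (-0.34, SE 0.10) and Tapbp (-0.33, SE 0.06) were also lower. H2-K1 differed by -0.03 (SE 0.12), Tap1 by -0.10 and B2m by 0.31 (SE 0.15, adjusted p = 0.0545), none past the threshold, although B2m passed in 9 of 21 alternatives, whose values ran from 0.078 to 0.383. With each library scaled by transcript length, the Nlrc5 value was -0.390 (adjusted p = 0.0947).

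With RANK-L in WT cells, 6 of the 9 members were lower and 1 higher in OC than in BMM. Of all genes, 60.5% changed in either direction, and the share that was lower is not given here. The presenting molecules fell together. H2-K1 had 433, 516 and 599 CPM in WT BMM and 304, 325 and 333 CPM in WT OC, a log2 change of -0.68 (SE 0.10, adjusted p = 1.4e-06). H2-D1, at 3244, 3411 and 3546 CPM in WT OC, fell by 0.67 on the log2 scale (SE 0.07, adjusted p = 4.86e-09). B2m, which every class I heavy chain needs to reach the surface, fell from a median of 1755 CPM (1357 to 1991) to 1003 CPM (742 to 1108), a log2 change of -0.81 (SE 0.13). None of these 3 genes had overlapping groups. The share of all genes without overlap is not given here for any comparison, so a lack of overlap does not set a gene apart. Tapbp fell by 0.48 (SE 0.05), Psmb8 by 0.44 (SE 0.07) and Nlrc5 by 0.77 (SE 0.15) on the log2 scale.

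Tap2 went the other way, from 98.4, 106 and 113 CPM in WT BMM to 154, 158 and 178 CPM in WT OC, a log2 change of 0.60 (SE 0.07, adjusted p = 5.29e-08). Its dimer partner Tap1 differed by -0.21 (SE 0.10, adjusted p = 0.0673, past the threshold in 4 of 22 alternatives) and Psmb9 by -0.19 (SE 0.12, adjusted p = 0.151), neither past the threshold. The transcript carrying the largest share of Tap2 TPM in every group, 54.9% to 58.1% on average, is annotated as a retained intron, so Tap2 counts are not all of coding messages.

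Between the null cultures labelled OC and BMM, 12.9% of all genes and 1 member changed. The lower osteoclast markers of the null OC libraries may lie in the cells, the culture or the labels, which cannot be told apart from these files, and this bears on every comparison that uses them. H2-K1 was lower in null OC than in null BMM, with a log2 change of -0.37 (SE 0.10, adjusted p = 0.0176). That call was lost without null BMM replicate 2 (-0.311, adjusted p = 0.0574) or replicate 3 (-0.325, adjusted p = 0.055). H2-D1 differed by -0.08, B2m by -0.29 (adjusted p = 0.115), Psmb9 by -0.30 (adjusted p = 0.088), Tap2 by 0.17, Tap1 by 0.14, Tapbp by 0.05, Nlrc5 by 0.05 and Psmb8 by -0.04.

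The difference between the genotypes' responses to RANK-L was tested as an interaction. It passed for 7 members (6 positive and 1 negative) beside 51.3% of all genes in either direction. A positive value means that the level with RANK-L, relative to M-CSF alone, was higher in null than in WT cells. Nlrc5 had an interaction of 0.82 (SE 0.20, adjusted p = 0.00137), H2-D1 of 0.59 (SE 0.10, adjusted p = 1.93e-05), Tapbp of 0.53 (SE 0.08), B2m of 0.52 (SE 0.18, adjusted p = 0.0163) and Psmb8 of 0.40 (SE 0.09). Tap2 had the negative value, -0.43 (SE 0.10, adjusted p = 0.000964). H2-K1, at 0.31 (SE 0.14, adjusted p = 0.0738), and Psmb9, at -0.10, did not pass. Scaled by transcript length, Nlrc5 gave 0.476 (adjusted p = 0.164). Tap1 had 0.35 (SE 0.14, adjusted p = 0.0369), a call that held in 18 of 34 alternatives. It was lost without a filter, with the replicate block, with the length and GC offset alone or with the block, in the fit of all 36 libraries, and without any of WT BMM replicates 2, 3 and 6, null BMM replicates 1, 2 and 3, WT OC replicates 1 and 2, or null OC replicates 1, 2 and 4. Its values over all alternatives ran from 0.103 to 0.429.

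With RANK-L, most of the pathway stood higher in null than in WT cultures. Of the 9 members, 6 rose and 1 fell, where 65.6% of all genes changed and 32.4% rose. The median log2 change of the members was 0.541, against -0.025 for all genes tested. The null and WT groups did not overlap for H2-K1, H2-D1, B2m, Tapbp, Psmb8 and Tap2. How many of all genes lacked overlap is not given here, so this does not set the members apart. These changes move with the markers given above (lower sums of osteoclast markers and higher sums of macrophage markers in null OC than in WT OC). The macrophage markers did not move evenly. From WT to null, mean Adgre1 went from 986 to 6668 CPM with RANK-L, and from 1888 to 7459 CPM without it. Mean Cd68 fell with RANK-L, from 2185 to 1805 CPM. The median log2 difference of the 7 markers from WT OC was 1.11 to 1.723 over the null OC libraries. The part of the osteoclast and macrophage markers in the result was not tested. The genotype comparison and the RANK-L comparison in WT cells share the WT OC libraries.

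Among the presenting molecules, H2-K1 had 304, 325 and 333 CPM in WT OC and 538, 603 and 711 CPM in null OC. Every null library was above every WT library, with a log2 change of 0.94 (SE 0.07, adjusted p = 3.05e-09). H2-D1 had 3244, 3411 and 3546 CPM in WT OC and 5391, 6291 and 6958 CPM in null OC, a log2 change of 0.89 (SE 0.06, adjusted p = 4.2e-10). The lowest null value of H2-D1 was near the WT BMM median of 5440 CPM. B2m, the light chain, had 742, 1003 and 1108 CPM in WT OC and 1212, 1347 and 1740 CPM in null OC, and rose by a log2 change of 0.54 (SE 0.10, adjusted p = 0.000138).

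Of the peptide supply genes, Psmb8, the catalytic immunoproteasome subunit also called LMP7, had 128, 137 and 148 CPM in WT OC and 208, 229 and 275 CPM in null OC. Its log2 change was 0.77 (SE 0.06, adjusted p = 1.72e-08), with no overlap between the groups. Psmb9, the subunit LMP2, had 32.1, 35.1 and 37.9 CPM in WT OC and 25.1, 33.6 and 35.2 CPM in null OC. These groups overlapped, and the log2 change of -0.12 (SE 0.09, adjusted p = 0.239) did not pass. The difference between the changes of Psmb8 and Psmb9 was not tested.

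Tapbp rose from 375, 413 and 442 CPM in WT OC to 553, 584 and 632 CPM in null OC, a log2 change of 0.52 (SE 0.05, adjusted p = 1.73e-07). Tap2 fell from 154, 158 and 178 CPM to 94.0, 110 and 117 CPM, a log2 change of -0.57 (SE 0.06, adjusted p = 2.99e-07). Tap1 had 39.8, 46.5 and 47.8 CPM in WT OC and 36.9, 43.7 and 49.5 CPM in null OC, which overlapped, with a log2 change of -0.05 (SE 0.09, adjusted p = 0.646). With the length and GC trend taken out, Tap1 passed in OC, at -0.236 (adjusted p = 0.011). Nlrc5, the activator, had 5.56, 8.96 and 12.3 CPM in WT OC and 10.9, 16.6 and 17.2 CPM in null OC. Its ranges overlapped and its log2 change of 0.80 (SE 0.17) passed the test (adjusted p = 0.000596), at levels that rest on few counts per library.

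**Figure D2:**
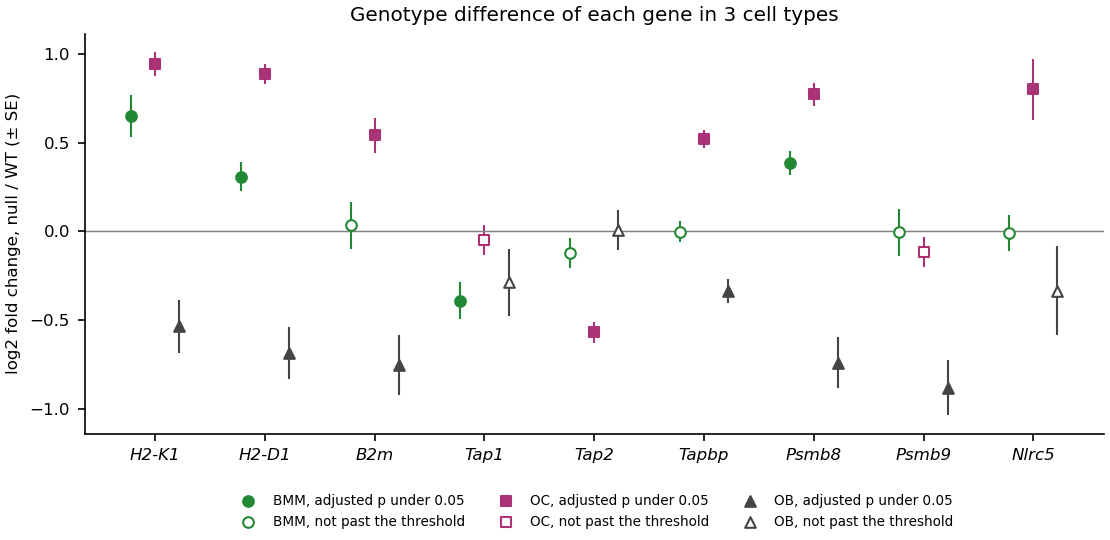
Log2 fold change of null against WT (vertical axis, bars ± SE) for each member in BMM (circles), OC (squares) and OB (triangles); filled symbols have an adjusted p under 0.05. H2-K1, H2-D1 and Psmb8 lie above 0 in BMM and OC and below 0 in OB, B2m and Tapbp are filled above 0 in OC and below 0 in OB, and Tap2 is filled below 0 in OC alone.

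In macrophages without RANK-L the null effect covered fewer members. H2-K1, H2-D1 and Psmb8 rose and Tap1 fell, where 52.3% of all genes changed, and the median log2 change of the 9 members was -0.000686 against 0.022 for all genes. H2-K1 had 433, 516 and 599 CPM in WT BMM and 586, 820 and 965 CPM in null BMM. The ranges touched over a few CPM, and the log2 change was 0.65 (SE 0.12, adjusted p = 0.000279). H2-D1 had 6147, 6582 and 7234 CPM in null BMM against 4419, 5440 and 6223 CPM in WT. Here too the ranges met at their ends, and the log2 change was 0.31 (SE 0.08, adjusted p = 0.00511). Psmb8 was the member without overlap, with 170, 186 and 200 CPM in WT BMM and 213, 238 and 269 CPM in null BMM (log2 change 0.39, SE 0.07, adjusted p = 0.000173).

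Tap1 had 42.4, 51.7 and 62.0 CPM in WT BMM and 34.8, 40.1 and 44.8 CPM in null BMM. It fell by 0.39 on the log2 scale (SE 0.11, adjusted p = 0.00552), with ranges that overlapped a little. The other members did not pass: Tap2 differed by -0.12 (SE 0.08, adjusted p = 0.229), B2m by 0.03 (SE 0.13, adjusted p = 0.844), and Tapbp, Psmb9 and Nlrc5 by at most 0.01 in size. For Nlrc5 the unit mattered: mean TPM was 4.40 ± 0.627 in WT BMM and 5.68 ± 0.912 in null BMM, and with each library scaled by transcript length the log2 change was 0.538 (adjusted p = 0.00637). The coding transcript Nlrc5-201 made up 63.5 ± 14.7% of Nlrc5 TPM in WT BMM and 36.5 ± 8.57% in null BMM. Another coding transcript, Nlrc5-202, made up 27.9 ± 18.7% and 37.1 ± 28.7%. Nlrc5-203, annotated as a retained intron, made up 5.42 ± 12.7% and 19.8 ± 30.0%, so the split varied widely between libraries. In null BMM, macrophage markers summed to 14248 to 15436 CPM, above the WT sums, although the median of the 7 genes' log2 differences from WT was -0.949 to -0.466 in the 6 libraries. Their part in these results was not tested.

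In osteoblast cultures the direction was the opposite: 6 of the 9 members fell and none rose, where 32.5% of all genes changed and 16.9% fell. The members' median log2 change was -0.534, against 0.002 for all genes. All 3 presenting molecules fell. H2-K1 had 288, 308 and 367 CPM in WT OB and 181, 196 and 345 CPM in null OB, a log2 change of -0.53 (SE 0.15, adjusted p = 0.0152). H2-D1 had 1828, 2123 and 2684 CPM in WT OB and 1112, 1230 and 2082 CPM in null OB, and fell by 0.68 on the log2 scale (SE 0.15, adjusted p = 0.00317). B2m had 1052, 1215 and 1304 CPM in WT OB and 560, 641 and 1194 CPM in null OB, a log2 change of -0.75 (SE 0.17, adjusted p = 0.0044). In each of these genes the WT and null ranges overlapped through a single null library, replicate 5, which held the highest null value.

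Both immunoproteasome members fell as well. Psmb9 had 23.3, 25.5 and 30.3 CPM in WT OB and 10.9, 12.8 and 22.5 CPM in null OB. The groups did not overlap, and the log2 change was -0.88 (SE 0.16, adjusted p = 0.000771). Psmb8 had 92.9, 103 and 129 CPM in WT OB and 53.9, 59.0 and 98.9 CPM in null OB, a log2 change of -0.74 (SE 0.14, adjusted p = 0.00174). Tapbp fell from 292, 328 and 350 CPM to 237, 255 and 308 CPM (log2 change -0.34, SE 0.07, adjusted p = 0.00163).

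The transporter and the activator did not pass in OB. Tap1 had 35.5, 41.9 and 54.1 CPM in WT OB and 25.5, 30.1 and 58.1 CPM in null OB, where the highest value again came from replicate 5, with a log2 change of -0.29 (SE 0.19, adjusted p = 0.27). Tap2 differed by 0.01 (SE 0.11) and Nlrc5 by -0.33 (SE 0.25, adjusted p = 0.339), the latter between 4.10, 5.42 and 6.87 CPM in WT OB and 1.76, 3.98 and 6.64 CPM in null OB.

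Null OB replicate 5 stood apart from the other 5 null OB libraries across the pathway. The median over the 9 members of the log2 difference from the WT OB mean was -0.004 in that library and -0.85 to -0.656 in the others, against -0.119 to 0.231 in the WT OB libraries. Without it, 7 members fell, with log2 changes of -0.965 for B2m, -0.852 for H2-D1, -0.717 for H2-K1, -0.904 for Psmb8, -1.063 for Psmb9, -0.394 for Tapbp and now -0.501 for Tap1 (adjusted p = 0.00362). Tap2 differed by -0.091 and Nlrc5 by -0.456 (adjusted p = 0.192). The same library was high for type I interferon-stimulated genes (12 genes), whose median difference from WT OB was 0.268, against -2.034 to -0.669 in the other null OB libraries. Its summed macrophage markers, 2628 CPM, were the lowest of the 6 null OB libraries.

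**Figure D3:**
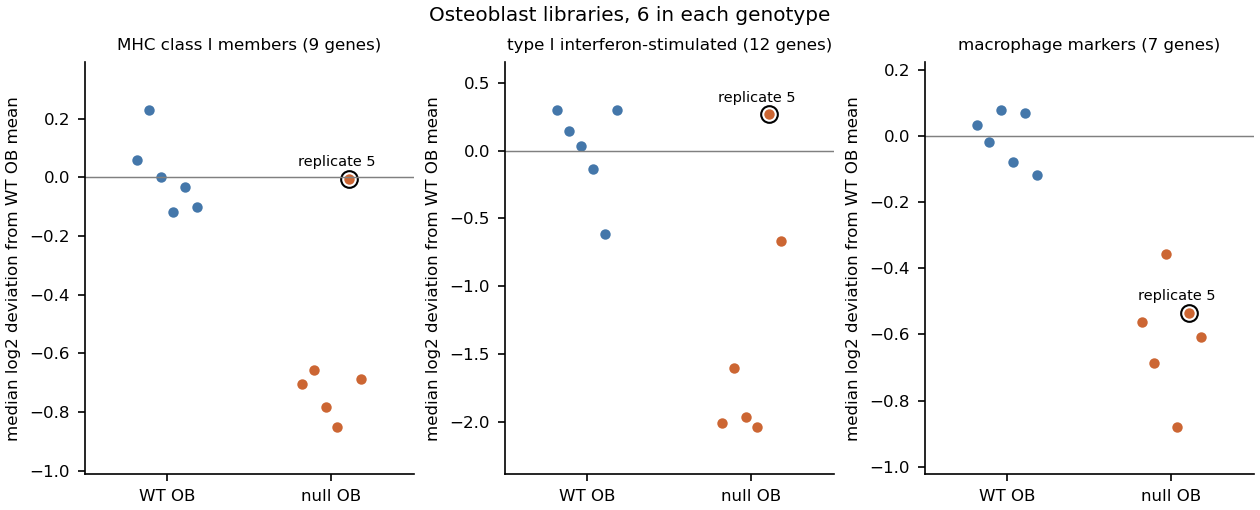
Median log2 difference from the WT OB mean (vertical axes) over the 9 members, 12 type I interferon-stimulated genes and 7 macrophage markers, for each OB library (points; blue WT, orange null; replicate 5 of null OB ringed). Replicate 5 lies at -0.004 and 0.268 in the first and second panels, apart from the other null libraries, and among them in the panel of macrophage markers.

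In the OB cultures, macrophage markers other than Csf1r fell in null, the direction of the members that changed. Csf1r, the M-CSF receptor, differed by a log2 change of 0.05 (adjusted p = 0.52). The median log2 difference of the 7 macrophage markers from the WT OB mean was -0.879 to -0.356 in the 6 null OB libraries, and their summed level had a median of 4150 CPM in WT and 2797 CPM in null, with no overlap. Members were more abundant in WT BMM than in WT OB, as given above. Of the osteoclast markers, Ctsk (log2 change 0.32), Mmp9 (0.69) and Atp6v0d2 (0.40) rose in null OB, and the others did not pass. The part of the macrophages or of osteoclasts in the lower OB values was not tested. The OB calls of H2-K1 and B2m were lost when a trend with gene length and GC content was taken out, with values of -0.412 (adjusted p = 0.0896) and -0.428 (adjusted p = 0.115).

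The genotype effects were then set against each other between cell types in the fit of all 36 libraries. The effect in OB minus that in OC passed for 8 members, 7 negative and 1 positive, beside 55.2% of all genes in either direction. H2-D1 had a difference of -1.56 (SE 0.15, adjusted p = 3.13e-11), Psmb8 of -1.50 (SE 0.14), H2-K1 of -1.46 (SE 0.17) and B2m of -1.28 (SE 0.21, adjusted p = 2.36e-06). Nlrc5 (-1.11, SE 0.27), Tapbp (-0.84, SE 0.08) and Psmb9 (-0.75, SE 0.19) also differed, and Tap2 had the positive value of 0.59 (SE 0.13). Tap1, at -0.23, was the member that did not pass.

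The effect in OB minus that in BMM passed for 6 members, all negative, beside 45.9% of all genes in either direction. H2-K1 had a difference of -1.17 (SE 0.17, adjusted p = 1.12e-06), Psmb8 of -1.11 (SE 0.14), H2-D1 of -0.98 (SE 0.15), Psmb9 of -0.86 (SE 0.19), B2m of -0.77 (SE 0.21) and Tapbp of -0.32 (SE 0.08). Tap1 (0.12), Tap2 (0.15) and Nlrc5 (-0.31) did not pass. Scaled by transcript length, Nlrc5 gave -0.948 (adjusted p = 0.00989), and with the length and GC trend taken out B2m gave -0.272 and lost its call.

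Ratios of partner genes within a library do not depend on the scaling between libraries. Each immunoproteasome subunit was set against the constitutive subunit it replaces, Psmb8 against Psmb5, Psmb9 against Psmb6 and Psmb10 against Psmb7, as log2 ratios of TPM, and 3 further ratios paired other members. With 6 libraries against 6, a two-sided exact permutation test can give no p below 0.00216, and p-values were adjusted over all 24 ratio tests, of which 13 passed.

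With RANK-L in WT cells, 2 of the 3 ratios moved toward the constitutive subunit. The log2 ratio of Psmb8 to Psmb5 was 0.32, 0.58 and 0.76 in WT BMM and -0.59, -0.46 and -0.25 in WT OC, without overlap, a difference of -1.0 (exact permutation test, adjusted p = 0.00866). In null OC it stayed at 0.11, 0.35 and 0.49, above every WT OC library by 0.78 on average (adjusted p = 0.00866). Psmb10 against Psmb7 showed a wider gap, with -1.51, -1.41 and -1.32 in WT OC and -0.36, -0.17 and -0.10 in null OC, a difference of 1.22 (adjusted p = 0.00866). For that ratio both genes changed between null and WT OC: Psmb7 fell, with a log2 change of -0.86 (SE 0.08, adjusted p = 8.18e-08) and Psmb10 rose by 0.37 (SE 0.07, adjusted p = 0.000124). Psmb9 against Psmb6 did not pass in either comparison, with differences of 0.12 between WT OC and BMM (adjusted p = 0.283) and -0.18 between null and WT OC (adjusted p = 0.352). Psmb10 against Psmb7 differed by -1.34 between WT OC and BMM (adjusted p = 0.00866).

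In null OB the ratios moved toward the constitutive subunits. Psmb8 to Psmb5 was -0.55, -0.35 and -0.05 in WT OB and -1.20, -1.04 and -0.10 in null OB, a difference of -0.58 (adjusted p = 0.0312). Psmb9 to Psmb6 differed by -0.79 and Psmb10 to Psmb7 by -0.28 (both adjusted p = 0.0173). The Psmb8 call was lost without WT OB replicate 2 or any of null OB replicates 1, 2, 3, 4 and 6, with adjusted p-values of 0.0519 to 0.0719. In BMM, Psmb8 to Psmb5 differed by -0.33 (adjusted p = 0.0594), where Psmb5 itself rose by a log2 change of 0.73.

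**Figure D4:**
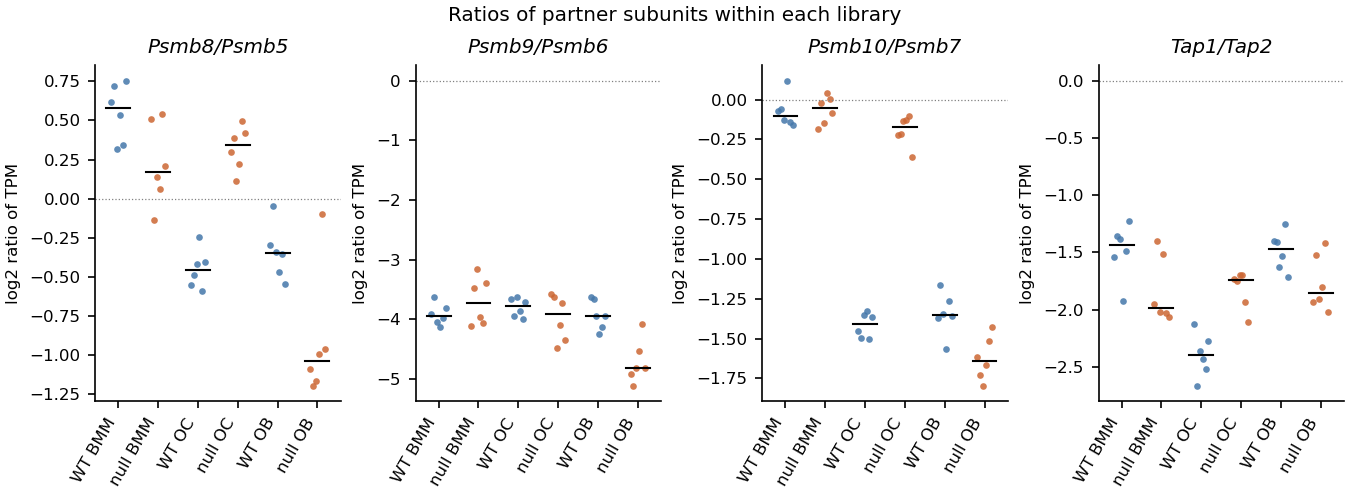
Log2 ratio of TPM within each library (vertical axes) for Psmb8/Psmb5, Psmb9/Psmb6, Psmb10/Psmb7 and Tap1/Tap2 in the 6 groups (points are libraries; blue WT, orange null; black lines are medians). In WT OC the Psmb8/Psmb5, Psmb10/Psmb7 and Tap1/Tap2 points lie below those of WT BMM and of null OC.

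The ratios of the other partners followed the single genes. Tap1 to Tap2, the subunits of the peptide pump, differed by -0.91 between OC and BMM in WT cells and by 0.58 between null and WT OC (both adjusted p = 0.00866). H2-K1 to H2-D1 was higher in null than in WT by 0.34 in BMM (adjusted p = 0.0173) and by 0.15 in OB (adjusted p = 0.0331), and differed by 0.05 in OC (adjusted p = 0.307). B2m to the sum of H2-K1 and H2-D1 was lower in null by 0.31 in BMM (log2 difference -0.31, adjusted p = 0.036) and differed by -0.34 in OC (adjusted p = 0.0346) and -0.12 in OB (adjusted p = 0.277). Leaving out single libraries lost the B2m call 9 times in BMM and 7 times in OC and the H2-K1 to H2-D1 call 6 times in OB.

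Genes around the members were described by list, as counts past the threshold in the same fits. Over all genes tested, 52.3% were past it in BMM, 65.6% in OC and 32.5% in OB. For RANK-L in WT cells the share was 60.5%. Counts of a list near these shares do not set that list apart. Of the non-classical class I genes, which show lipids, metabolites or few peptides, 9 of 12 tested rose and 2 fell in null against WT OC, with a median log2 change of 0.90. H2-M3, whose X2 and Y letters are printed above and which presents formylated peptides, had 13.5, 14.0 and 15.9 CPM in WT OC and 33.5, 45.0 and 49.9 CPM in null OC. Its log2 change of 1.61 (SE 0.10, adjusted p = 2e-10) came with those of Mr1 (1.95, SE 0.19), which shows vitamin metabolites, Cd1d1 (1.46), which shows lipids, and H2-M2 (1.63). In BMM 3 of 12 rose and 3 fell, and in OB 1 of 13 rose and 5 fell, among them H2-M3 (-0.67, SE 0.10) and H2-T23 (-0.43); 3 fell without null OB replicate 2, and 2 with the length and GC trend taken out. RANK-L in WT cells lowered 8 of 12 and raised 1.

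Among 21 regulators of class I genes (interferon receptors, kinases, STAT, IRF, RFX and NF-Y factors), 15 rose and 2 fell in null OC, with a median of 0.535. Irf8, a transcription factor of macrophage identity, had 30.8, 33.5 and 34.5 CPM in WT OC and 176, 201 and 240 CPM in null OC, a log2 change of 2.65 (SE 0.08, adjusted p = 3.42e-14). Stat2, of the type I interferon signal, rose by 1.60 (SE 0.09), Irf2 by 0.87, Irf1 by 0.70 (SE 0.14, adjusted p = 0.000348) and Rfx5 by 1.34 (SE 0.35, adjusted p = 0.00335) on the log2 scale. In BMM 4 of the 21 rose and 8 fell, beside 52.3% of all genes past the threshold. Irf8 was at -0.50 (SE 0.07), Irf9 at -0.87 (SE 0.10) and the inhibitor Socs1 at 1.70 (SE 0.17). In OB none of the 21 rose and 6 fell, beside 32.5% of all genes past the threshold. Irf8 was at -0.53 (SE 0.09) and the interferon receptor chains Ifngr1 at -0.26, Ifngr2 at -0.27 and Ifnar2 at -0.38. Irf1 (-0.12, adjusted p = 0.2) and Rfx5 (-0.19, adjusted p = 0.651) did not pass in OB.

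Of 10 other processing genes, 4 rose and 4 fell in null OC. Erap1, which trims peptides in the endoplasmic reticulum, rose by 0.45 (SE 0.06) and Psmb10 by 0.37, while the chaperone Calr (-0.45) and the peptidase Lnpep (-0.59) fell. In BMM 2 rose and 5 fell (3 fell without any of WT BMM replicates 1, 5 and 6 or null BMM replicates 4 and 5), with the proteasome activator Psme2 at 0.52 (SE 0.08) and Erap1 at -0.44 (SE 0.09). In OB 1 rose and 3 fell, the last being Psme1 (-0.48, SE 0.05), Psme2 (-0.46) and Psmb10 (-0.48, SE 0.08). The constitutive proteasome (14 genes) differed by cell type: 9 rose and none fell in null BMM, none rose and 5 fell in null OC, and all 14 fell in null OB, with a median of -0.22 there. With the trend of gene length and GC content taken out, 1 of the 14 fell in OB (median 0.009016) and 3 rose and 3 fell in OC; without null OB replicate 4, 8 fell in OB. Psma6 (0.77) and Psmb5 (0.73) were among those that rose in BMM, and Psmb6 (-0.27, SE 0.05) and Psmb2 (-0.30) among those that fell in OB.

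MHC class II and interferon-induced genes share inducers with class I and were counted in the same way. In null against WT OC, 5 of 7 class II genes fell and 2 rose, with a median of -2.85. The invariant chain Cd74 had 334, 375 and 410 CPM in WT OC and 40.3, 48.8 and 53.2 CPM in null OC, a log2 change of -2.97 (SE 0.08, adjusted p = 1.62e-14), and the class II activator Ciita fell by 3.01 (SE 0.36) on the log2 scale. So in null OC the class I activator Nlrc5 rose and the class II activator Ciita fell. In BMM 2 of 6 class II genes rose, Cd74 (1.07, SE 0.20) and H2-Ab1 (1.46), or 4 of 6 without WT BMM replicate 4. In OB Ciita rose by 1.11 (SE 0.31, adjusted p = 0.0125) and H2-DMb1 fell, and without null OB replicate 6 the number that rose was 4 of 7. All 12 type I interferon-stimulated genes fell in null BMM, with a median of -1.72, beside the rise of H2-K1, H2-D1 and Psmb8 in the same libraries. In OC 2 of 11 fell, and in OB 2 of 12 fell, with a median of -1.05. Without null OB replicate 5, 11 of the 12 fell in OB, with a median of -1.603, and without WT OB replicate 2 or 6 or null OB replicate 2, 1 fell. The GTPases and chemokines induced by interferon-γ counted 5 of 9 lower in null BMM, 3 higher and 3 lower of 8 in OC and 4 of 10 lower in OB. Without null OB replicate 5 the last count was 8, and it was 1 or 2 without any of WT OB replicates 1, 2, 4 and 6 or null OB replicates 1, 2, 3 and 4. No interferon gene of the 6 listed had enough counts to be tested, and their summed level was at most 0.0606 CPM in any library.

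**Figure D5:**
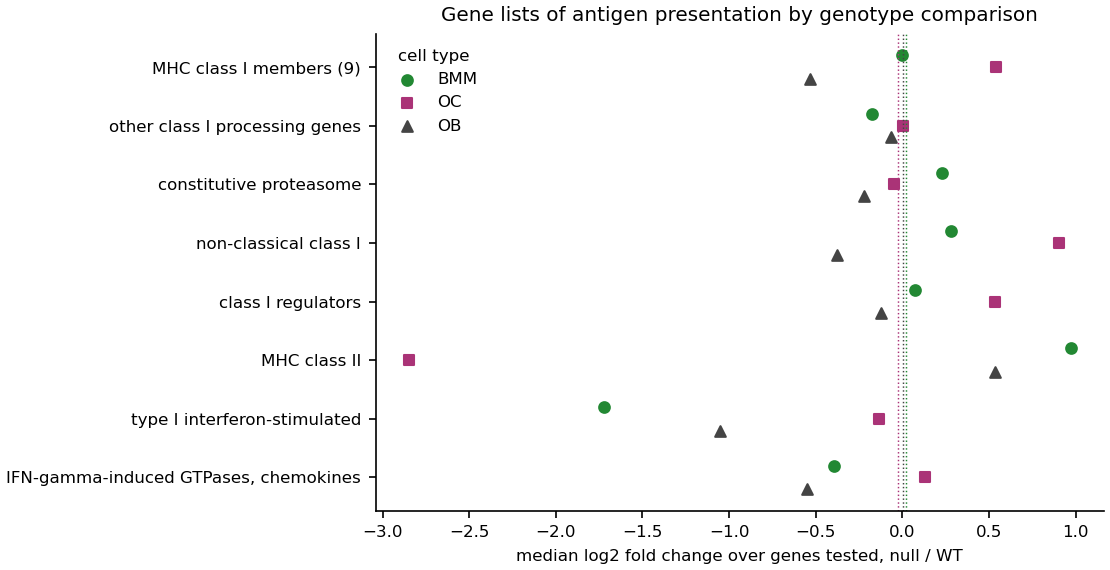
Median log2 change of null against WT (horizontal axis) of each gene list (rows) in BMM (circles), OC (squares) and OB (triangles), with the median of all genes tested as a vertical line for each. The members and the regulators lie at 0.541 and 0.535 in OC, the class II genes at -2.85, and the type I interferon-stimulated genes at -1.72 in BMM.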

How the data were processed

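Expression was measured by RNA sequencing of total RNA (mirVana extraction, NEB low input kit, per the labels' protocols) in 36 libraries. The authors deposited, for each transcript, the estimated counts and TPM of kallisto, per the file headers; the submitters' processing notes name kallisto, DESeq2 and the build GRCh38, although the identifiers are mouse Ensembl ones, and versions are not given in the sources used here. Effective transcript lengths were deposited with them. Of 88198 transcripts, 97.5% matched GENCODE M21 (GRCm38) by identifier; the others carried 0.629% to 0.974% of counts. Counts and TPM were summed to 30205 genes and counts rounded. The strand of counting is not given in the sources used here; the Tap1 and Psmb9 genes overlap at their ends on opposite strands, so their reads there cannot be told apart.

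Groups were compared with edgeR 4.0.16 in R 4.3.3 (filterByExpr, TMM, robust quasi-likelihood test, threshold 0.05 on p-values adjusted by Benjamini-Hochberg over every gene in the fit): genotypes within the 12 libraries of a cell type, RANK-L and its interaction in the 24 BMM and OC libraries, and the rest in all 36. All log2 changes (log2 fold changes) are edgeR estimates with SE. Ratios were tested with exact permutations in Python 3.11.15. The most similar replicates differed by a chi-square of 3.34 per gene, so none was merged. Alternatives used DESeq2 1.42.0, limma 3.58.1, other scaling and filters, length and GC offsets and left-out libraries. The code was tested on simulated counts. Named beside the members are up to 4 genes with the smallest p of each list, the genes of ratios, and Irf1, Irf8, Rfx5, Cd74 and Ciita; 1 further gene of that rule is not reported here. The members and lists were chosen with earlier results of these data known. Mir324 expression is not analysed here, and no library label was checked against it.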

Additional observations from a re-analysis of the deposited data

Results flagged for a closer look

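Null OB replicate 5 held the highest value of its group, apart from the other 5 libraries by Dixon's criterion, in 7 members: H2-K1 at 344.6 CPM, H2-D1 at 2082 CPM, B2m at 1194 CPM, Tap1 at 58.1 CPM, Tapbp at 308.4 CPM, Psmb8 at 98.88 CPM and Psmb9 at 22.53 CPM. Its log2 ratio of Psmb8 to Psmb5 was likewise apart, at -0.098. Single libraries stood high for H2-D1 in WT OB (replicate 2, 2684 CPM), Tap2 in WT OC (replicate 4, 177.6 CPM) and the log2 ratio of Psmb10 to Psmb7 in WT BMM (replicate 4, 0.12). Of the 90 groups of libraries checked, chance would mark about 1 in 20.

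The response to RANK-L differed between genotypes, by a test of the interaction, for H2-D1 (0.59), B2m (0.52), Tap1 (0.35), Tap2 (-0.43), Tapbp (0.53), Psmb8 (0.40) and Nlrc5 (0.82). The genotype effect in OB differed from that in BMM for H2-K1 (-1.17), H2-D1 (-0.98), B2m (-0.77), Tapbp (-0.32), Psmb8 (-1.11) and Psmb9 (-0.86). It differed from that in OC for H2-K1 (-1.46), H2-D1 (-1.56), B2m (-1.28), Tap2 (0.59), Tapbp (-0.84), Psmb8 (-1.50), Psmb9 (-0.75) and Nlrc5 (-1.11). All are log2 differences. These 3 sets of tests share libraries with each other.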

How the results depend on the processing

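Of 90 changes of members tested, 61 passed the threshold, all 61 kept their direction in every alternative run, and 53 also kept their call. The counts of members past the threshold with 1 library left out at a time were 4 in BMM, 7 in OC, 6 to 7 in OB, 7 to 8 for RANK-L in WT, 0 to 2 in null, 6 to 8 for the interaction, 8 to 9 for OB against BMM, 6 to 7 for OB against OC, 6 for the effect in OB minus BMM and 8 to 9 for that minus OC; ratio tests passing numbered 11 to 14. With the length and GC offset, OB kept 4 members (5 with the replicate block as well). Over all genes, OB calls went from 4420 to 2367 with that offset and 2074 with the block added. Null OC against BMM went from 1628 to 1013 with limma-voom, 985 with the replicate block and 768 with offset and block, and ran from 810 to 2144 with 1 library left out. With RLE scaling the median log2 change of all genes was 0.141 in WT OB against BMM and 0.126 against OC.

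Same-numbered libraries did not deviate together (correlations of -0.131 to 0.103), so the replicate block was not used in the report: each library correlated best with its own number in 0 to 3 of 6 cases. With pairs, an exact sign-flip test of 6 cannot give a p below 0.0312, and 0 of the 13 ratio tests passed (adjusted p 0.075 to 0.15). Under the block Tap2 in OB was -0.003.

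Changes that had not passed and turned sign were as follows; the cause was not tested. With the transcript length offset, Psmb9 in BMM was 0.088, Nlrc5 in BMM 0.538, and Nlrc5 for RANK-L in null -0.072. With the length and GC offset, and with the block added, Nlrc5 in BMM was 0.137 and 0.133, B2m -0.218 and -0.219, Tapbp 0.035 and 0.034, and for RANK-L in null Nlrc5 was -0.030 and -0.036, Tapbp -0.062 and -0.060 and, with the offset alone, B2m 0.006; Tap1 in OB minus BMM was -0.018 with both. Tap2 in OB was -0.028 with limma-voom. H2-K1 in OB against OC was 0.044 with RLE and DESeq2 and 0.025 without a filter. H2-K1 to H2-D1 for RANK-L in WT was -0.009 from CPM. With 1 library left out, values crossed 0 for B2m (-0.076 to 0.103), Tapbp (-0.037 to 0.021), Psmb9 (-0.114 to 0.060) and Nlrc5 (-0.062 to 0.045) in BMM, Tap1 in OC (-0.087 to 0.017), Tap2 in OB (-0.091 to 0.073), Psmb9 in the interaction (-0.167 to 0.008), H2-K1 in OB against OC (-0.068 to 0.002), Tap1 in OB minus BMM (-0.073 to 0.217), and the ratios of Psmb10 to Psmb7 in BMM (-0.013 to 0.047) and H2-K1 to H2-D1 for RANK-L in WT (-0.010 to 0.024). In OB, 6 type I interferon-stimulated genes fell by DESeq2 and 12 by limma-voom. The offset joined with the block, and the gene lists under each setting, were chosen after seeing the data. Tap1 gained a call in OC with the length and GC offset (-0.236) and with the block added (-0.242). Depth limits Nlrc5 most, at 33 to 431 counts per library.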

Other observations

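The genes whose pattern over the 6 groups lay closest to the average of the 9 members, among 8859 genes with a mean of at least 10 CPM, were Crlf2, a cytokine receptor chain (root mean square difference of centred log2 group means 0.0607), the heme oxygenase Hmox2 (0.0734), Arl6ip1 (0.0819), the endosomal GTPase Rab5c (0.0851) and the immunoproteasome subunit Psmb10 (0.0898). Crlf2 had medians of 36.1 CPM in WT BMM, 39.3 in null BMM, 28.3 in WT OC, 36.6 in null OC, 19.1 in WT OB and 15.01 in null OB. The members' average profile, as log2 differences from its own mean, was 0.391 in WT BMM, 0.474 in null BMM, -0.005 in WT OC, 0.395 in null OC, -0.364 in WT OB and -0.892 in null OB. Of the members, Tapbp lay closest to it (0.0801), and Tap1 (0.3903) and Tap2 (0.4575) farthest.

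The transcripts behind the levels were few for the presenting molecules. A single transcript, B2m-201, gave 100% of B2m TPM, and H2-D1-202 gave 92.6% to 94.6% of H2-D1 TPM on average in each group. For Psmb8, the transcript Psmb8-203 gave 51.5% to 55.2%.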
